A study of Homo sapiens with 10 samples.

Results

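The 49 genes described here encode the machinery of cell division: the CDK1 kinase with its cyclins, the mitotic kinases, the spindle checkpoint, the kinetochore, the mitotic kinesins, condensin and the genes' own transcription factors. They were named by symbol for their function, and the rule uses no difference between conditions. They were, however, chosen with earlier results of these data known, so their counts against all genes are descriptions. Each was read from the probe set with the highest mean over the 10 arrays among those annotated to that symbol alone. All 49 were found among the 19775 genes that the array annotation names in this way. The data come from 10 Affymetrix arrays of 1 colour, with 1 array per condition, and a value is a log2 intensity. HCT116 cells come from a human colorectal carcinoma, and Hke3 is known as a line derived from HCT116. Each line was profiled with THP1 macrophages and vitamin D3, with THP1 macrophages, with vitamin D3, and alone. THP1, a leukaemia-derived line used as a model of macrophages, was profiled with vitamin D3 and alone, and no agent to differentiate it is named. Vitamin D3 was given for 24 hours, at a dose not given in the sources used here. The coculture let soluble factors pass between the cell types and kept the cells apart. No genotype or treatment other than these is named.

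With 1 array for each condition there is no replicate error. The error was taken from the residuals of a linear model with limma, an additive fit of coculture, vitamin D3 and cell line. Over the 8 colon cancer arrays this fit leaves 4 residual degrees of freedom, which hold any interactions of these factors together with array noise. The p-values of the fit were adjusted over 13243 genes that read above 6.18, the median of all values, on at least 1 of the 8 arrays. All 49 members did so. A gene is called where its adjusted p is under 0.05. The 4 pairs of arrays that differ only in coculture, one for each line with and without vitamin D3, serve as the visible repeats. Nothing in the labels says that the arrays of a line came from separate cultures, so the p-values measure only the spread between these arrays, and their number limits the precision.

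The labels were checked first. CYP24A1, the enzyme that degrades active vitamin D and a strongly induced target of the vitamin D receptor, read 10.40 in THP1 with vitamin D3 against 4.51 in THP1 alone. It also read higher with vitamin D3 in the lines cultured without THP1, at 12.35 against 10.89 in Hke3 and 11.43 against 9.99 in HCT116. In coculture it went the other way, at 10.89 with vitamin D3 against 12.25 without in Hke3, and 9.70 against 10.68 in HCT116. The vitamin D3 labels of the 4 cocultured arrays thus go against this target gene, and 1 label field of the Hke3 array with vitamin D3 names no treatment. The coculture and cell line results below were therefore also computed without the vitamin D3 labels.

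Of 15 macrophage markers, 6 to 7 read above 6.18 on the 4 cocultured arrays, 5 to 6 on the 4 colon cancer arrays without THP1, and all 15 on both THP1 arrays. The log2 of their summed intensity was 9.74 to 9.86 with THP1, 9.72 to 9.80 without, and 15.85 to 16.15 in THP1 itself. SRGN, a proteoglycan abundant in macrophages, read 4.37 to 6.28 on the cocultured arrays against 3.93 to 4.72 on those without, and 13.90 to 14.05 in THP1. Of 11 colon epithelial markers, 9 were above 6.18 on each colon cancer array and 3 to 4 in THP1. The 3′ minus 5′ signal of the ACTB control probe sets, a measure of RNA integrity, was 0.56 and 0.62 in cocultured Hke3 and 0.23 and 0.16 in cocultured HCT116, against 0.72 and 0.94 in Hke3 and 0.25 and 0.30 in HCT116 without coculture, each with and without vitamin D3. For GAPDH it lay between -0.11 and 0.06 on all 10 arrays. The part of these differences in the results was not tested.

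A dividing cell enters mitosis when CDK1, bound to cyclin B, is switched on by CDC25 phosphatases and a relay of PLK1 and Aurora kinases. Condensin and topoisomerase compact and untangle the chromosomes, kinesins and spindle proteins build the spindle, and kinetochores tie each chromosome to its microtubules. The spindle checkpoint holds the anaphase promoting complex in check until every chromosome is attached. That complex then marks securin and cyclin B for destruction, separase opens cohesin, and the central spindle guides the cleavage of the cell. Most of these genes are transcribed in G2 and mitosis by MYBL2 and FOXM1 together with the MuvB complex, and in resting cells they are silenced by the DREAM complex, which binds promoter elements called CHR. Their mRNAs are therefore commonly read as a mark of proliferation.

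Mitosis genes were lower in colon cancer cells cultured with THP1 macrophages. All 49 fitted differences were below 0, against 54.7% of all genes tested, and 29 of the 49 (59.2%) were called lower, against 4.05% of all genes. None was called higher, against 3.76% of all genes. At an unadjusted p under 0.05 there were 38 members, against 26.2% of all genes. The median member difference was -0.25 and that of all genes -0.02. The least of the 29, SPC24, fell by 13.6%. The most, RCC1, fell by 35.4% and was the only one to change by 1.5-fold or more. All 29 read lower in all 4 pairs, as did 9 of the 20 members not called. In total 38 members (77.6%) were lower in all 4 pairs, against 17.7% of all genes, and in 22 members all 4 cocultured arrays lay below all 4 arrays without THP1, against 5.89% of all genes. Within a line, both cocultured arrays lay below both others for 41 members in Hke3 (29.8% of all genes) and 43 in HCT116 (32.9%), and in both lines at once for 37 (14%). The median member difference was -0.23 in the Hke3 pair with vitamin D3, -0.25 in the Hke3 pair without it, -0.29 in the HCT116 pair with it and -0.29 in the HCT116 pair without it. Of the 49 members, 43, 43, 47 and 45 were lower in these 4 pairs, against 49.3%, 54.9%, 50.4% and 58.6% of all genes. These are bulk samples, so fewer cells in mitosis and less of each mRNA per cell cannot be told apart.

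The number of called members depended on having all 8 arrays. With 1 array of HCT116 left out it was 2 (the vitamin D3 array), 4 (THP1 and vitamin D3), 5 (THP1) or 6 (alone). With 1 array of Hke3 left out it was 8 (alone), 9 (THP1), 11 (vitamin D3) or 11 (THP1 and vitamin D3). With all 8 arrays but each coculture pair as a block, which is the paired fit, 6 members and 113 of all genes were called lower. In the 8 fits without 1 array the member median stayed between -0.27 and -0.24. Calls over all genes fell as well, from 537 lower to between 11 and 228. Without the vitamin D3 labels, 30 members were called lower and 0 higher.

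**Figure D1:**
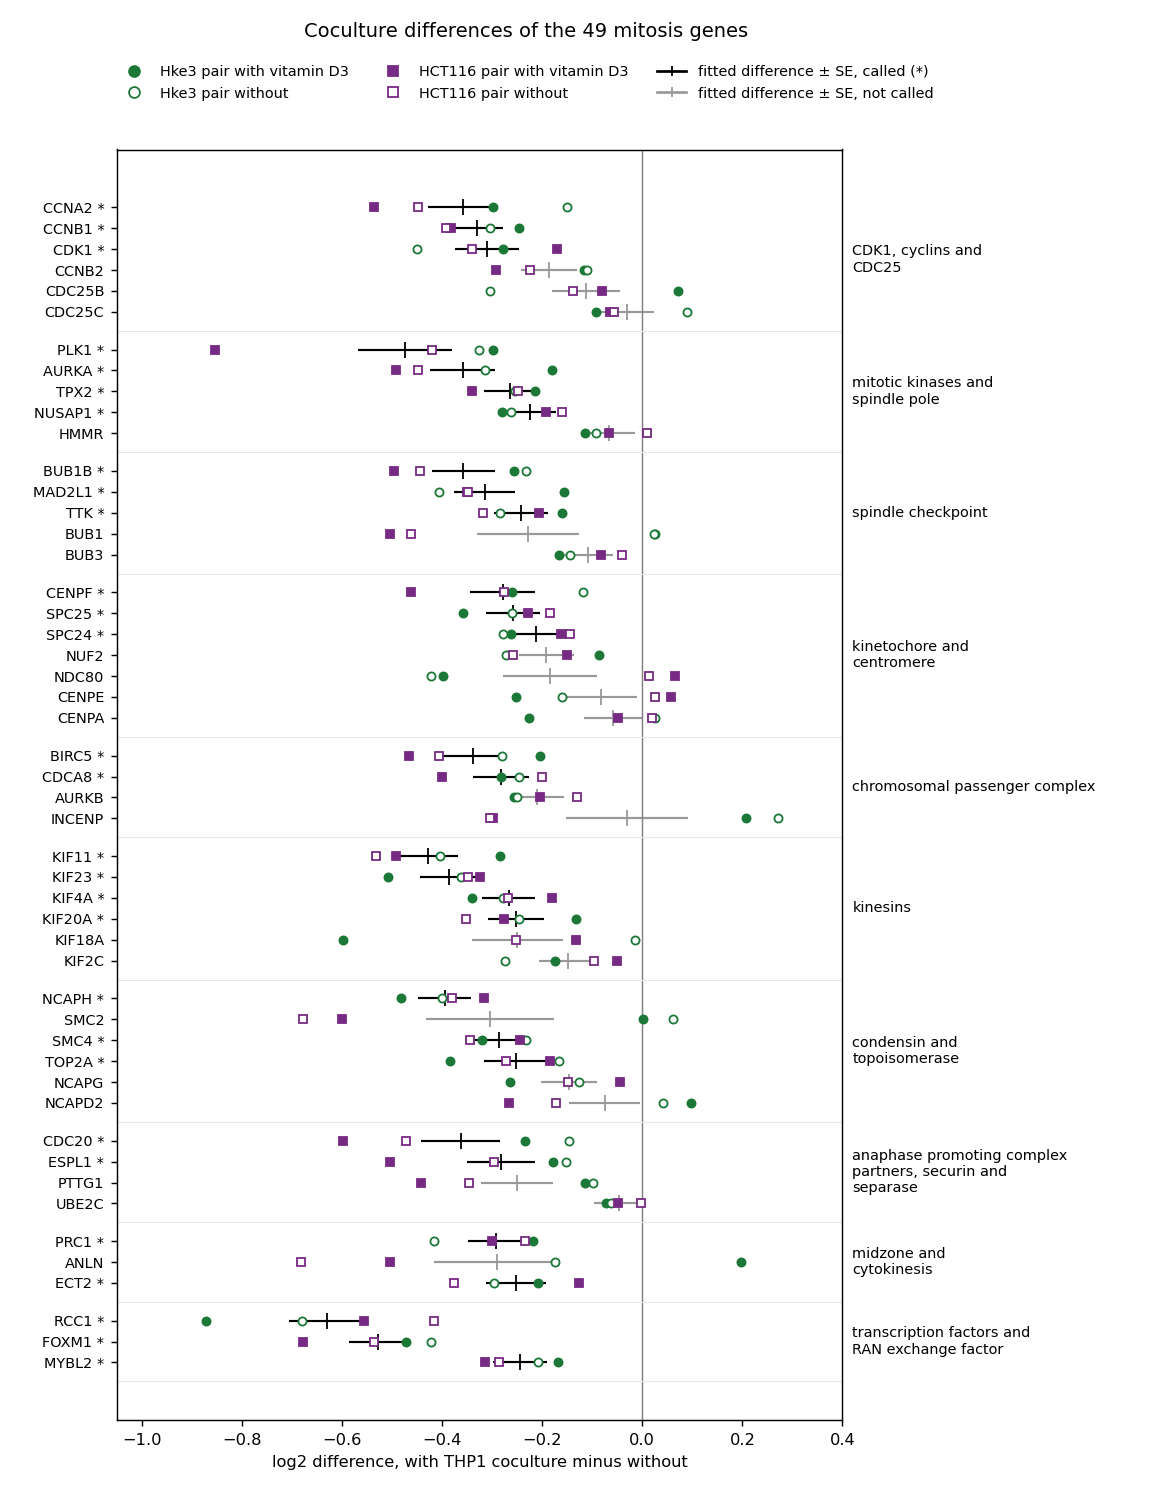
Log2 difference of each of the 49 mitosis genes, with THP1 coculture minus without, grouped by role. Filled and open green circles are the Hke3 pairs with and without vitamin D3, purple squares the HCT116 pairs, and the tick with its bar is the fitted difference ± SE, black with an asterisk for the 29 called genes. All 49 ticks lie below 0, between -0.63 for RCC1 and -0.03 for CDC25C.

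Promoters are shown because many mitosis genes share 2 elements known from work on cell cycle transcription, the CHR bound by DREAM and MuvB and the CCAAT box bound by NF-Y. RefSeq promoter sequences of assembly GRCh38.p14, from 250 bases before to 50 bases after the first start listed for a gene, were matched for 42 of the 49 members. AURKA, BIRC5, BUB3, FOXM1, TPX2, TTK and UBE2C were not analysed here for their promoters. The CHR letters TTTGAA, on either strand, stood in 28 of the 42 (66.7%), against 9.63% of the 10645 promoters of tested genes and 15.4% of all 27305 promoters. CCAAT, on either strand, stood in 29 of the 42 (69.0%), against 36.3% and 35.7%. In the 60 bases before the start, a window chosen after the positions were seen, TTTGAA stood in 15 members (35.7%), against 1.41% of the promoters of tested genes. The rarer form TTCGAA was found in 2 members (4.76%, against 1.60%). The letters TTCCCGC or TTTGGCG, written for E2F sites, were found in 9 (21.4%), against 12.4% of the promoters of tested genes and 8.28% of all.

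The sequences below run from 110 bases before to 10 bases after the start, so they hold the upstream flank and the first bases of exon 1, read 5′ to 3′ on the gene's strand. They are PLK1 at chr16:23678779-23678898 on the plus strand, KIF11 at chr10:92593020-92593139 on the plus strand, KIF23 at chr15:69414239-69414358 on the plus strand, PRC1 at chr15:90994526-90994645 on the minus strand, CCNB2 at chr15:59105036-59105155 on the plus strand, HMMR at chr5:163460522-163460641 on the plus strand and RCC1 at chr1:28505933-28506052 on the plus strand. Capitals mark TTTGAA or its complement TTCAAA and CCAAT or its complement ATTGG, and neighbouring or overlapping matches run together. PLK1, KIF11, KIF23 and PRC1 were called lower in coculture and hold both elements. CCNB2 and HMMR hold both and were not called. RCC1 had the largest fall, and its sequence at the start used here holds neither. Promoters at other starts of these genes were not analysed here.
PLK1: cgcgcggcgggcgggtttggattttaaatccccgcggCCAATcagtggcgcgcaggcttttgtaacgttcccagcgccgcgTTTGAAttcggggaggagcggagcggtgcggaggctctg
KIF11: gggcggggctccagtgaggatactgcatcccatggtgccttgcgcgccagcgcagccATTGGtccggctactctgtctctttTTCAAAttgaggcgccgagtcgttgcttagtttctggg
KIF23: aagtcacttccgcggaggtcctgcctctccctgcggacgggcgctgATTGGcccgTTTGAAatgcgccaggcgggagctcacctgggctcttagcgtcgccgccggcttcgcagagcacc
PRC1: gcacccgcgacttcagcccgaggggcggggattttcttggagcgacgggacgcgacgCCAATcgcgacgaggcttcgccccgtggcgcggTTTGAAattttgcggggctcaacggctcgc
CCNB2: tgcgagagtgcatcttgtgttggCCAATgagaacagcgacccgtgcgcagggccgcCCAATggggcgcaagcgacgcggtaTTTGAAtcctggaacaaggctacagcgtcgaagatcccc
HMMR: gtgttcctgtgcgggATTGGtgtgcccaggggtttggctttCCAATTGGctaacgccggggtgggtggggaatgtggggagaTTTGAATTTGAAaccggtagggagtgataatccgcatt
RCC1: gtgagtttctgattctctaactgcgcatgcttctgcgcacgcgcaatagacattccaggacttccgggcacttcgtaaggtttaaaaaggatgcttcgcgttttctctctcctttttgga
Counted from the start, the CHR letters begin at -29 and the CCAAT box at -73 in PLK1. In KIF11 they begin at -28 and -53, in PRC1 at -20 and -53, and in KIF23 at -55 and -64, so that in each the CCAAT box lies upstream of the CHR. TTTGAA stood in 17 of 24 called members with a promoter and in 11 of 18 not called, and the median coculture difference was -0.27 with it and -0.24 without it. CCAAT stood in 20 of 24 called members and in 9 of 18 not called, with medians of -0.26 with it and -0.19 without it. A match is a description of these letters and shows neither binding nor its absence.

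Of the 6 genes of CDK1, its cyclins and its activating phosphatases, 3 were called lower in coculture. CCNA2, the S and G2 phase cyclin A2, read 9.95 and 10.12 in cocultured Hke3 and 10.17 and 10.35 in cocultured HCT116, against 10.25 and 10.27 in Hke3 and 10.71 and 10.79 in HCT116 without coculture, each with and without vitamin D3. Its levels with THP1 lay below those without in both lines, and the difference was -0.36 ± 0.07 (SE, limma adjusted p = 0.0264). CCNB1, the cyclin B1 that activates CDK1 for mitotic entry, read 11.95 and 11.95 in Hke3 with THP1 and 11.91 and 11.96 in HCT116 with THP1, against 12.20 and 12.25 in Hke3 and 12.29 and 12.35 in HCT116 without THP1, each time with vitamin D3 and without it. The 4 cocultured arrays lay close together and below all 4 others, a difference of -0.33 ± 0.05 (adjusted p = 0.0159). CDK1 itself fell by 0.31 ± 0.06 (adjusted p = 0.0294). CCNB2, a second B-type cyclin, differed by -0.19 (adjusted p = 0.0786). CDC25B, the phosphatase that starts CDK1 activation, differed by -0.11 ± 0.07 (adjusted p = 0.329). CDC25C, the phosphatase that amplifies it, read 8.60 and 8.79 in cocultured Hke3 and 8.88 and 8.95 in cocultured HCT116, against 8.69 and 8.70 in Hke3 and 8.94 and 9.00 in HCT116 without coculture, each with and without vitamin D3. Its groups overlapped in both lines, and the difference of -0.03 ± 0.05 (adjusted p = 0.766) had a 95% interval from -0.16 to 0.09.

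Among the mitotic kinases and spindle pole genes 4 of 5 were called lower. PLK1, the Polo-like kinase that drives mitotic entry and spindle assembly, read 9.65 and 9.75 in cocultured Hke3 and 9.46 and 9.65 in cocultured HCT116, against 9.95 and 10.07 in Hke3 and 10.32 and 10.07 in HCT116 without coculture, each with and without vitamin D3. All 4 cocultured arrays lay below all 4 others, and the array of HCT116 with vitamin D3 was the highest. The difference was -0.47 ± 0.09 (adjusted p = 0.0268), with means of -0.31 over the Hke3 pairs and -0.64 over the HCT116 pairs. AURKA, the Aurora kinase of the spindle poles, read 10.69 and 10.66 in Hke3 with THP1 and 10.69 and 10.76 in HCT116 with THP1, against 10.87 and 10.98 in Hke3 and 11.18 and 11.20 in HCT116 without THP1, each time with vitamin D3 and without it. The groups did not overlap, and the difference was -0.36 ± 0.06 (adjusted p = 0.0212). TPX2, which activates AURKA on the spindle, fell by 0.26 (adjusted p = 0.0259), and NUSAP1, a protein that bundles spindle microtubules, fell by 0.22 (adjusted p = 0.038). HMMR, a spindle pole protein, differed by -0.07 (adjusted p = 0.454), with a 95% interval from -0.18 to 0.05.

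Of the 5 spindle checkpoint genes 3 were called lower. BUB1B, which encodes the checkpoint kinase BUBR1 of the mitotic checkpoint complex, read 11.20 and 11.25 in cocultured Hke3 and 10.87 and 10.93 in cocultured HCT116, against 11.45 and 11.48 in Hke3 and 11.37 and 11.38 in HCT116 without coculture, each with and without vitamin D3. In each line the cocultured arrays lay below the others, and the difference was -0.36 ± 0.06 (adjusted p = 0.0198). MAD2L1, the MAD2 protein that binds CDC20 at unattached kinetochores, read 11.80 and 11.62 in Hke3 with THP1 and 12.00 and 11.85 in HCT116 with THP1, against 11.95 and 12.03 in Hke3 and 12.35 and 12.20 in HCT116 without THP1, each time with vitamin D3 and without it. It was also lower in every pair, and the difference was -0.32 ± 0.06 (adjusted p = 0.0251). TTK, the MPS1 kinase that starts checkpoint signalling, fell by 0.24 (adjusted p = 0.0344). BUB3, the adaptor of the BUB kinases, differed by -0.11 (adjusted p = 0.221). BUB1, the kinase that recruits the others to the kinetochore, differed by -0.23 ± 0.10 (adjusted p = 0.198) and went apart by line, as described below.

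Kinetochore and centromere genes had the median closest to 0 among the role groups, -0.19, with 3 of 7 called lower. CENPF, a large protein of the outer kinetochore, read 11.16 and 11.34 in cocultured Hke3 and 10.71 and 10.98 in cocultured HCT116, against 11.42 and 11.46 in Hke3 and 11.18 and 11.26 in HCT116 without coculture, each with and without vitamin D3. Each line's cocultured arrays lay below its others, and the difference was -0.28 ± 0.07 (adjusted p = 0.0403). SPC25, a subunit of the NDC80 complex that grips microtubules, read 9.12 and 9.11 in Hke3 with THP1 and 9.41 and 9.41 in HCT116 with THP1, against 9.48 and 9.37 in Hke3 and 9.64 and 9.60 in HCT116 without THP1, each time with vitamin D3 and without it. The difference was -0.26 ± 0.05 (adjusted p = 0.0295), again with no overlap within a line. SPC24, its partner subunit, fell by 0.21 ± 0.05 (adjusted p = 0.0486). A second SPC24 probe set that passed the filter differed by 0.00. The other two subunits were not called, with NUF2 at -0.19 (adjusted p = 0.0723) and NDC80 at -0.19 ± 0.09 (adjusted p = 0.252). CENPE, the kinetochore motor, differed by -0.08 (adjusted p = 0.512), and CENPA, the centromeric histone, by -0.06 (adjusted p = 0.587).

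In the chromosomal passenger complex, which corrects faulty attachments, 2 of 4 genes were called lower. BIRC5, the survivin subunit, read 11.58 and 11.58 in cocultured Hke3 and 11.26 and 11.35 in cocultured HCT116, against 11.79 and 11.86 in Hke3 and 11.72 and 11.75 in HCT116 without coculture, each with and without vitamin D3. The cocultured arrays lay below the others within each line, and the difference was -0.34 ± 0.06 (adjusted p = 0.0207). CDCA8, the borealin subunit, read 10.04 and 10.10 in Hke3 with THP1 and 10.24 and 10.46 in HCT116 with THP1, against 10.32 and 10.34 in Hke3 and 10.64 and 10.66 in HCT116 without THP1, each time with vitamin D3 and without it. It fell by 0.28 ± 0.06 (adjusted p = 0.027) and was lower in all 4 pairs. AURKB, the kinase of the complex, differed by -0.21 (adjusted p = 0.0535), just over the threshold. INCENP, its scaffold, differed by -0.03 ± 0.12 (adjusted p = 0.9), with the lines going opposite ways.

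Of the 6 kinesins 4 were called lower. KIF11, the motor that pushes the spindle poles apart, read 9.39 and 9.29 in cocultured Hke3 and 9.31 and 9.35 in cocultured HCT116, against 9.67 and 9.69 in Hke3 and 9.80 and 9.88 in HCT116 without coculture, each with and without vitamin D3. The cocultured arrays of both lines lay close together and below all others, and the difference was -0.43 ± 0.06 (adjusted p = 0.014). KIF23, the motor subunit of the central spindle complex centralspindlin, read 9.95 and 9.95 in Hke3 with THP1 and 9.87 and 9.90 in HCT116 with THP1, against 10.46 and 10.31 in Hke3 and 10.19 and 10.25 in HCT116 without THP1, each time with vitamin D3 and without it. Its groups did not overlap either, with a difference of -0.39 ± 0.06 (adjusted p = 0.0145). KIF4A, a chromosome-bound kinesin, fell by 0.27 (adjusted p = 0.0271), and KIF20A, a kinesin of the midzone, by 0.25 (adjusted p = 0.0346). KIF18A, which limits chromosome movement, differed by -0.25 ± 0.09 (adjusted p = 0.125), and KIF2C, which depolymerises microtubules at centromeres, by -0.15 (adjusted p = 0.143).

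Condensin and topoisomerase gave 3 calls among 6 genes. NCAPH, the kleisin subunit of condensin I, read 9.46 and 9.52 in cocultured Hke3 and 9.65 and 9.64 in cocultured HCT116, against 9.94 and 9.92 in Hke3 and 9.97 and 10.02 in HCT116 without coculture, each with and without vitamin D3. The groups did not overlap, and the difference was -0.40 ± 0.05 (adjusted p = 0.0135). SMC4, an ATPase subunit shared by both condensins, fell by 0.29 ± 0.06 (adjusted p = 0.0262), and TOP2A, the topoisomerase that untangles sister chromatids, by 0.25 (adjusted p = 0.0496). SMC2, the partner ATPase of SMC4, read 8.67 and 8.58 in Hke3 with THP1 and 8.63 and 8.56 in HCT116 with THP1, against 8.67 and 8.52 in Hke3 and 9.23 and 9.24 in HCT116 without THP1, each time with vitamin D3 and without it. It was low on both groups of Hke3 arrays and in HCT116 with THP1, and high only in HCT116 without THP1. Its difference over both lines was -0.30 ± 0.13 (adjusted p = 0.177). A second, dimmer SMC2 probe set differed by -0.33 over both lines and was called lower (limma adjusted p = 0.0362). Its values by line were not analysed here. NCAPG differed by -0.15 (adjusted p = 0.143) and NCAPD2 by -0.07 ± 0.07 (adjusted p = 0.549), both subunits of condensin I.

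Of the 4 genes around the anaphase promoting complex 2 were called lower. CDC20, its mitotic activator, read 11.78 and 11.91 in cocultured Hke3 and 11.38 and 11.54 in cocultured HCT116, against 12.02 and 12.05 in Hke3 and 11.98 and 12.01 in HCT116 without coculture, each with and without vitamin D3. All 4 pairs were lower with THP1, and the difference was -0.36 ± 0.08 (adjusted p = 0.0335). ESPL1, the protease separase, read 9.92 and 9.98 in Hke3 with THP1 and 9.50 and 9.64 in HCT116 with THP1, against 10.10 and 10.13 in Hke3 and 10.00 and 9.93 in HCT116 without THP1, each time with vitamin D3 and without it. Its difference was -0.28 ± 0.07 (adjusted p = 0.0446), with the cocultured arrays below the others in each line. PTTG1, the separase inhibitor securin, differed by -0.25 (adjusted p = 0.0696). UBE2C, the ubiquitin-conjugating enzyme of the complex, read 12.11 and 12.11 in cocultured Hke3 and 12.00 and 12.09 in cocultured HCT116, against 12.18 and 12.18 in Hke3 and 12.05 and 12.10 in HCT116 without coculture, each with and without vitamin D3. The levels with and without THP1 lay close together, and the difference of -0.05 ± 0.05 (adjusted p = 0.61) had a 95% interval from -0.16 to 0.07.

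For the midzone and cytokinesis 2 of 3 genes were called lower. PRC1, the protein that bundles the antiparallel microtubules of the midzone, read 11.59 and 11.56 in cocultured Hke3 and 11.40 and 11.50 in cocultured HCT116, against 11.81 and 11.97 in Hke3 and 11.70 and 11.73 in HCT116 without coculture, each with and without vitamin D3. The 4 cocultured arrays lay below the 4 others, and the difference was -0.29 ± 0.06 (adjusted p = 0.0239). ECT2, the exchange factor that activates RHOA at the cleavage furrow, fell by 0.25 ± 0.06 (adjusted p = 0.0427), while a second ECT2 probe set that passed the filter differed by 0.00. ANLN, the scaffold anillin of the contractile ring, read 11.88 and 11.61 in Hke3 with THP1 and 11.22 and 11.08 in HCT116 with THP1, against 11.68 and 11.79 in Hke3 and 11.72 and 11.76 in HCT116 without THP1, each time with vitamin D3 and without it. The cocultured arrays were lower in HCT116, whereas in Hke3 the highest and lowest values were both from cocultured cells, and the difference was -0.29 ± 0.13 (adjusted p = 0.189).

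The 2 transcription factors and the RAN exchange factor had the lowest median of the role groups, -0.53, and all 3 were called lower. RCC1, the chromatin-bound exchange factor for the RAN GTPase that guides spindle assembly, read 9.88 and 9.98 in cocultured Hke3 and 10.50 and 10.55 in cocultured HCT116, against 10.75 and 10.66 in Hke3 and 11.05 and 10.96 in HCT116 without coculture, each with and without vitamin D3. All cocultured arrays were lower than all others, and RCC1 fell by 35.4% (log2 difference -0.63 ± 0.08, adjusted p = 0.0135). FOXM1, the forkhead factor that drives G2 and M phase transcription, read 9.47 and 9.58 in Hke3 with THP1 and 8.96 and 9.12 in HCT116 with THP1, against 9.94 and 10.00 in Hke3 and 9.64 and 9.65 in HCT116 without THP1, each time with vitamin D3 and without it. In each line the drop was several times the gap between arrays of 1 group, and the difference was -0.53 ± 0.06 (adjusted p = 0.0134), a fall of 30.6%. MYBL2, the B-MYB subunit that joins MuvB, fell by 0.24 ± 0.05 (adjusted p = 0.0344). RCC1 and FOXM1 were called in each of 16 settings tried for the coculture comparison, including each fit without 1 array. The minimum of 1.5-fold is not among these 16, and there RCC1 alone was called.

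**Figure D2:**
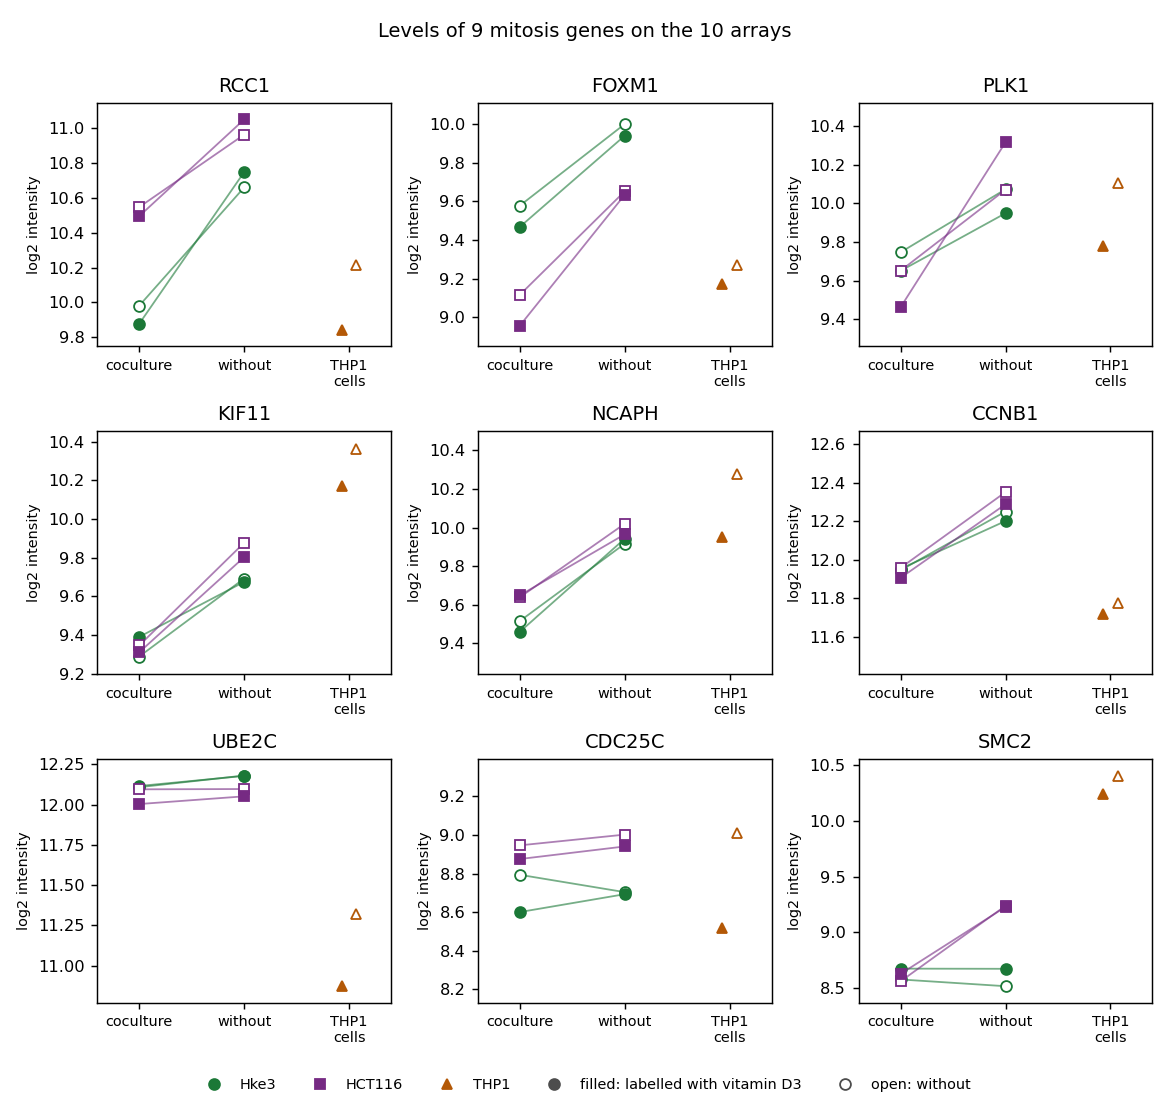
Log2 intensity of 9 mitosis genes on each of the 10 arrays. Green circles are Hke3, purple squares HCT116 and brown triangles THP1, filled for arrays labelled with vitamin D3, and lines join the arrays of a coculture pair. RCC1, FOXM1, PLK1, KIF11, NCAPH and CCNB1 are lower in every pair. On the probe sets shown, UBE2C and CDC25C are nearly level, and SMC2 drops only in HCT116.

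For 24 members the array has 1 probe set, and for the rest every probe set was also read for direction. Of 84 member probe sets that passed the filter, 78 differed by less than 0, 27 were called lower and 0 higher, against 2.47% of all 24732 probe sets called lower. Of 23 members with more than 1 such probe set, 6 had probe sets of both signs: BUB1, BUB3, CCNB2, CDC25C, ECT2 and SPC24. The largest of the differences above 0 was 0.25, in CDC25C (adjusted p = 0.0711).

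Whether coculture acted differently on the 2 lines was tested with an interaction term, which leaves 3 residual degrees of freedom. The term was called above 0 (a higher coculture difference in Hke3) for 2 members, SMC2 and BUB1, against 1.87% of all genes, and below 0 for 1 member, NDC80, against 2.34%. At an unadjusted p under 0.05 it reached 12 members of 49, against 21.9% of all genes. Its median over the 49 was 0.04. The fall was larger in HCT116 for 27 of the 49, and the median was -0.23 over the Hke3 pairs and -0.29 over the HCT116 pairs. Across the 49 genes the Hke3 and HCT116 differences correlated at Pearson r = 0.12 and Spearman rho = 0.14, against 0.279 and 0.28 across all 13243 genes. These are correlations across genes, which are not independent replicates.

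On the probe set used, SMC2, whose levels are given above, differed by 0.03 in Hke3 and by -0.64 in HCT116. The interaction was 0.67 ± 0.10 (adjusted p = 0.0152). BUB1 read 10.13 and 10.09 in cocultured Hke3 and 9.77 and 9.85 in cocultured HCT116, against 10.10 and 10.07 in Hke3 and 10.27 and 10.31 in HCT116 without coculture, each with and without vitamin D3. It was lower with THP1 in HCT116 and level in Hke3, where it differed by 0.02 against -0.48 in HCT116 (interaction 0.51 ± 0.09, adjusted p = 0.031). Of the other BUB1 probe sets past the filter, the brighter differed by -0.08 over both lines (adjusted p = 0.744) and the dimmer by 0.06 (adjusted p = 0.752). NDC80, the subunit that binds the microtubule, read 9.65 and 9.58 in Hke3 with THP1 and 10.21 and 10.23 in HCT116 with THP1, against 10.05 and 10.00 in Hke3 and 10.15 and 10.22 in HCT116 without THP1, each time with vitamin D3 and without it. It went the other way, lower in Hke3 (difference -0.41) and level in HCT116 (difference 0.04), with an interaction of -0.45 ± 0.10 (adjusted p = 0.0464). INCENP read 7.91 and 7.84 in cocultured Hke3 and 8.11 and 8.35 in cocultured HCT116, against 7.70 and 7.57 in Hke3 and 8.41 and 8.66 in HCT116 without coculture, each with and without vitamin D3. Its difference was 0.24 in Hke3 and -0.30 in HCT116, but the interaction of 0.54 ± 0.15 did not pass (adjusted p = 0.0988). ANLN, with 0.01 in Hke3 and -0.59 in HCT116, did not pass either (interaction 0.60 ± 0.14, adjusted p = 0.0559), and CDC20 had an interaction of 0.34 ± 0.10 (adjusted p = 0.0909). These calls were not stable to leaving out an array. Above 0 there were 2 without Hke3 in coculture, 1 without HCT116 with vitamin D3, and 0 without any 1 of the other 6, and below 0 there were 0 in each of the 8 fits. Without the vitamin D3 labels 3 members were called above 0 and 1 below.

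**Figure D3:**
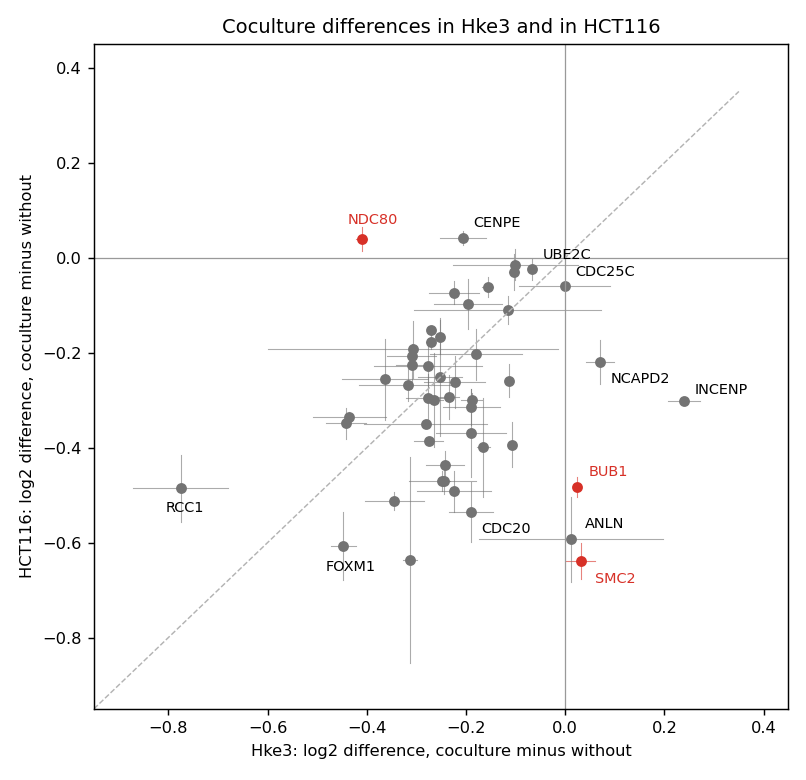
Coculture difference (log2, with THP1 minus without) of the 49 mitosis genes in Hke3 on the x axis and in HCT116 on the y axis. Points are the mean of the pairs with and without vitamin D3, bars join the values of both pairs, the dashed line marks equal differences, and red marks the genes with a called interaction. Most points lie below 0 on both axes, with SMC2 and BUB1 near 0 in Hke3 and NDC80 near 0 in HCT116.

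The 2 colon cancer lines differed in the members in both directions. In Hke3 relative to HCT116, 12 of 49 were called lower (24.5%), against 15.7% of all genes, and 11 were called higher (22.4%), against 24.8%. The median difference was -0.02. In 5 members all 4 Hke3 arrays lay below all 4 HCT116 arrays (13.5% of all genes), and in 5 they lay above (21.1%). The ACTB 3′ minus 5′ signal given above was higher on every Hke3 array than on every HCT116 array, and its part here was not tested.

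CDC25B read 11.47 and 11.39 in Hke3 with THP1 and 11.40 and 11.69 in Hke3 without it, against 10.64 and 10.66 in HCT116 with THP1 and 10.72 and 10.80 in HCT116 without it, each with and without vitamin D3. All 4 Hke3 arrays were above all HCT116 arrays, and this was the largest member difference, 0.79 ± 0.07 (adjusted p = 0.000107, 1.72-fold). NCAPD2, a HEAT-repeat subunit of condensin I, read 10.72 and 10.67 in Hke3 with THP1 and 10.62 and 10.63 in Hke3 without it, against 9.87 and 9.92 in HCT116 with THP1 and 10.14 and 10.10 in HCT116 without it, each with and without vitamin D3. It too was higher on every Hke3 array, by 0.65 ± 0.07 (adjusted p = 0.0003). INCENP was lower on every Hke3 array, with a difference of -0.63 ± 0.12 (adjusted p = 0.00452). Members higher in Hke3 also included FOXM1 (0.41 ± 0.06, adjusted p = 0.00113), KIF4A (0.39, adjusted p = 0.000881) and CENPF (0.32 ± 0.07, adjusted p = 0.00598), followed by CENPE, ESPL1, MYBL2, BUB1B, TOP2A and BIRC5. Lower members also included RCC1 (-0.45 ± 0.08, adjusted p = 0.00238), NDC80 (-0.38, adjusted p = 0.0129), CCNA2 (-0.36 ± 0.07, adjusted p = 0.00461) and CDCA8 (-0.30, adjusted p = 0.00403), followed by BUB3, MAD2L1, CDC25C, SPC25, KIF2C, CDK1 and AURKB. In the passenger complex 3 of 4 genes were lower in Hke3 and 1, BIRC5, was higher. The sign of BIRC5 turned when all its probe sets were averaged (-0.078, adjusted p = 0.234), and so did those of BUB1 and ECT2, which were not called here.

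No member passed the threshold for vitamin D3 in the colon cancer lines. By limma 0 members and 0 of 13243 genes were called in either direction. At an unadjusted p under 0.05 there were 375 genes (2.83%) and 0 members. The target gene CYP24A1 was itself not called in this fit, with a log2 difference of 0.14. Under the labels it rose without THP1 and fell in coculture, and the fit averages these opposite changes. Its interaction of coculture with vitamin D3 was -2.62, the lowest of all genes tested, and was not called either. The absence of calls therefore cannot show that vitamin D3 left the members unchanged. The median member difference was -0.02 in Hke3 (31 of 49 below 0) and -0.03 in HCT116 (38 below 0) among the arrays without THP1. With THP1, where CYP24A1 goes against the labels, it was -0.01 in Hke3 (27 below 0) and -0.05 in HCT116 (35 below 0). Under the labels as given, 13 of the 49 members (26.5%) had 1 sign in all 4 pairs, against 13.2% of all genes. In the fit 34 members (69.4%) were below 0, against 54.8% of all genes. Under the labels as given, the largest differences were those of CENPF, with -0.14 ± 0.07 (95% interval -0.29 to 0.01), SPC24, with -0.12 ± 0.05 (-0.24 to 0.00), and CCNA2, with -0.11 ± 0.07 (-0.27 to 0.05). SPC24 read 8.60 and 8.69 in Hke3 with THP1 and 8.50 and 8.65 in HCT116 with THP1, against 8.86 and 8.97 in Hke3 and 8.66 and 8.79 in HCT116 without THP1, each time with vitamin D3 and without it. In the pairs without THP1, vitamin D3 minus without, SPC24 differed by -0.11 in Hke3 and -0.13 in HCT116, CENPF by -0.04 and -0.08, and CCNA2 by -0.02 and -0.08. In the cocultured pairs, whose labels CYP24A1 goes against, SPC24 differed by -0.09 in Hke3 and -0.14 in HCT116, CENPF by -0.18 and -0.27, and CCNA2 by -0.17 and -0.17. The differences of CENPF and CCNA2 in the fit thus came mostly from the cocultured pairs, and their sign there depends on those labels. Over all 49 members the 95% intervals, under the same labels, lay between -0.35 and 0.37. The interaction of coculture with vitamin D3 was called for 0 members and 0 genes, with 652 genes (4.92%) and 0 members at an unadjusted p under 0.05.

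In THP1 the members were expressed at levels of the same order as in the colon cancer lines, with a median over the 49 of 10.25 with vitamin D3 and 10.61 alone, against 10.25 to 10.79 on the colon cancer arrays. THP1 was set against the mean of both lines in a fit over all 10 arrays. Coculture and vitamin D3 were terms of that fit, so its differences are relative to the lines without coculture and are not the plain difference of the means over the 8 colon cancer arrays. There were 13879 genes tested and 5 residual degrees of freedom. Of the 49 members 23 were called lower in THP1 (40.2% of all genes) and 12 higher (28.1%), with a median of -0.17 against -0.07 for all genes. The member median was -0.10 without THP1 with vitamin D3 and -0.34 without THP1 alone, fits that leave 1 THP1 array. Over the fits without 1 array the median of all genes stayed between -0.08 and -0.07. After cyclic loess the member median was 0.00, with 20 members higher, a count not set against all genes here. In 12 members both THP1 arrays lay below all 8 colon cancer arrays (36% of all genes), and in 12 they lay above (26%).

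The condensin ATPases were higher in THP1. SMC2 read 10.25 with vitamin D3 and 10.41 alone in THP1, against 8.52 to 9.24 on the colon cancer arrays, a fitted difference of 1.41 ± 0.16 (adjusted p = 3.66e-05). SMC4 read 12.65 and 12.76 in THP1, with and without vitamin D3. In the colon lines SMC4 read 11.11 and 11.21 in cocultured Hke3 and 11.33 and 11.20 in cocultured HCT116, against 11.43 and 11.44 in Hke3 and 11.58 and 11.54 in HCT116 without coculture, each with and without vitamin D3. Both THP1 arrays thus lay above all others, with a fitted difference of 1.21 ± 0.07 (adjusted p = 5.03e-07). Of the other condensin I subunits, NCAPD2 and NCAPG were called lower and NCAPH was not called. MYBL2 read 10.24 and 10.74 in THP1, with and without vitamin D3. In the colon lines it read 9.44 and 9.54 in Hke3 with THP1 and 9.16 and 9.23 in HCT116 with THP1, against 9.61 and 9.75 in Hke3 and 9.48 and 9.52 in HCT116 without THP1, each time with vitamin D3 and without it, which made it higher in THP1 by 0.90 ± 0.10 (adjusted p = 3.69e-05). FOXM1, its partner in transcription, was called lower in THP1, at -0.59. All 7 kinetochore and centromere genes had differences above 0, whereas 7877 of the 13879 genes tested were below 0. Of the 7, 3 were called higher (SPC24, NUF2 and CENPE), against 28.1% of all genes.

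CDC25B was the lowest member in THP1 relative to the colon lines, at 8.33 with vitamin D3 and 8.40 alone against 10.64 to 11.69, a difference of -2.79 ± 0.08 (adjusted p = 3.78e-09). KIF18A read 7.94 and 8.06 in THP1, with and without vitamin D3. In the colon lines KIF18A read 9.06 and 9.29 in cocultured Hke3 and 9.37 and 9.30 in cocultured HCT116, against 9.66 and 9.31 in Hke3 and 9.51 and 9.56 in HCT116 without coculture, each with and without vitamin D3, and the difference was -1.51 ± 0.11 (adjusted p = 2.06e-06). ECT2 read 9.52 and 9.55 in THP1, with and without vitamin D3. In the colon lines ECT2 read 10.83 and 10.82 in Hke3 with THP1 and 10.78 and 10.60 in HCT116 with THP1, against 11.04 and 11.11 in Hke3 and 10.91 and 10.98 in HCT116 without THP1, each time with vitamin D3 and without it, and the difference was -1.48 ± 0.07 (adjusted p = 1.33e-07). For all 3 genes no colon cancer array came as low as THP1. All 3 genes of midzone and cytokinesis and all 4 of the passenger complex were called lower, among them ANLN (-0.98) and BIRC5 (-0.82 ± 0.09, adjusted p = 2.21e-05). KIF23 was called lower, at -0.95 ± 0.09, but with all its probe sets averaged it was higher by 0.21 (adjusted p = 0.0119).

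**Figure D4:**
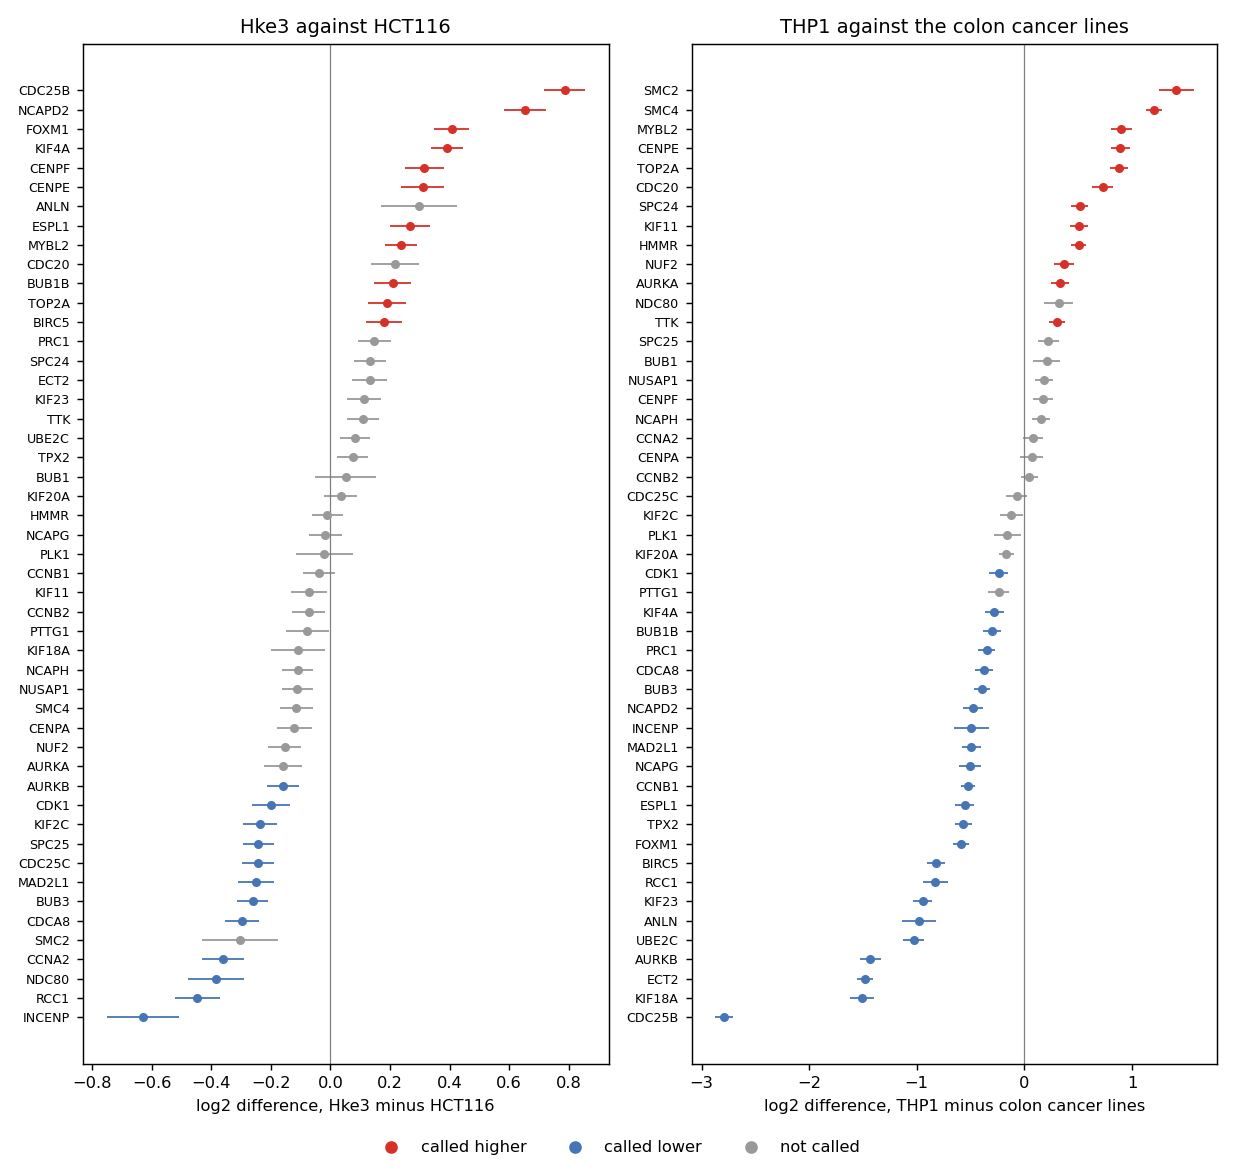
Fitted log2 difference ± SE of the 49 mitosis genes, Hke3 minus HCT116 on the left and THP1 minus the colon cancer lines without coculture on the right, each sorted by size. Red marks genes called higher, blue called lower and grey not called. The left panel runs from 0.79 for CDC25B to -0.63 for INCENP, and the right panel from 1.41 for SMC2 to -2.79 for CDC25B.

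In THP1 itself the members were lower with vitamin D3. All 49 read below THP1 alone, against 51.4% of 12717 genes, with a median of -0.25 against -0.01 for all genes. By at least 1.25-fold, 18 members were lower, against 9.56% of all genes, and 0 were higher, against 11.4%. These are 1 array each, so the difference has no replicate check and no test. MYBL2 read 10.24 with vitamin D3 against 10.74 alone, the largest difference (-0.51). CDC25C followed with 8.52 against 9.01 (-0.49), KIF2C with 11.10 against 11.56 (-0.47), UBE2C with 10.87 against 11.32 (-0.45) and CENPA with 9.37 against 9.81 (-0.45). At the other end ECT2 read 9.52 against 9.55 (-0.04) and CCNB1 11.72 against 11.77 (-0.05). UBE2C, CENPA and CDC25C, which were close to 0 in the coculture comparison, thus stood among the 5 with the largest differences here.

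**Figure D5:**
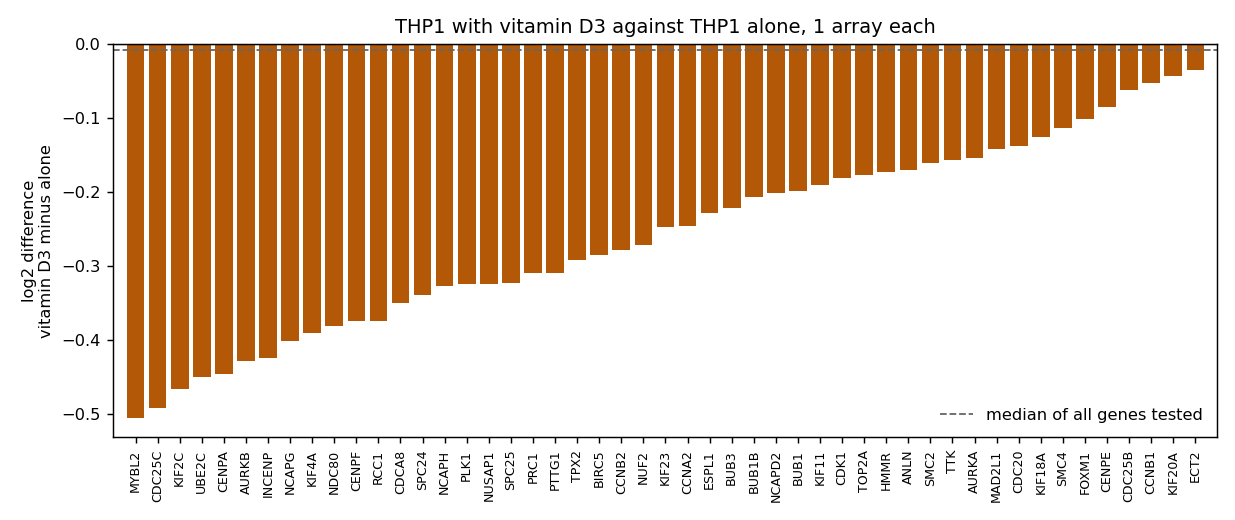
Log2 difference of the 49 mitosis genes between THP1 with vitamin D3 and THP1 alone, 1 array each, sorted by size. The dashed line is the median of all 12717 genes, -0.01. All bars point down, from -0.51 for MYBL2 to -0.04 for ECT2.

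Further genes of chromosome segregation, on 6 lists that share no gene with the 49, were read in the same coculture fit. These lists too were chosen with earlier results of these data known. Of 99 listed genes 95 were on the array under 1 symbol and 94 were tested. Of these 30 were called lower and 0 higher, 86 differed by less than 0, and the median was -0.18. Over all genes tested 4.05% were called lower, 3.76% higher and 54.7% differed by less than 0, with a median of -0.02. The other listed genes were not analysed here. The count varied by list. Of 26 other kinetochore and centromere genes 12 were called lower (median -0.24), among them CENPO, a subunit of the inner kinetochore, at -0.53 (adjusted p = 0.0134), and SKA3, which stabilises attachments, at -0.46 (adjusted p = 0.0135). Of 28 other mitotic kinases, motors and spindle genes 14 were called lower (median -0.25), among them the kinesins KIFC1 at -0.53 (adjusted p = 0.0159) and KIF18B at -0.38 (adjusted p = 0.0149). MKI67, the proliferation marker Ki-67, was not called (-0.15 ± 0.11, adjusted p = 0.394) and read 11.26 and 11.20 in cocultured Hke3 and 10.74 and 10.81 in cocultured HCT116, against 11.25 and 11.09 in Hke3 and 11.00 and 11.28 in HCT116 without coculture, each with and without vitamin D3. It was thus lower with THP1 in both pairs of HCT116 and in neither pair of Hke3.

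The lists outside the kinetochore and spindle had fewer calls. Cohesin and its regulators gave 2 of 13 (median -0.12): CDCA5, the cohesin protector sororin, at -0.46 (adjusted p = 0.0145), and the acetyltransferase ESCO2 at -0.47 (adjusted p = 0.0181). Subunits of the anaphase promoting complex itself gave 0 of 14 (median -0.09), with the smallest p for CDC26 at -0.22 (adjusted p = 0.0636) and CDC23 at -0.18 (adjusted p = 0.0761). DREAM and MuvB gave 1 of 10 (median -0.15), LIN52 at -0.26 (adjusted p = 0.0306), with the E2F partner TFDP1 at -0.22 (adjusted p = 0.0523). Condensin II gave 1 of 3 (median -0.23), NCAPD3 at -0.28 (adjusted p = 0.0323), beside NCAPG2 at -0.23 (adjusted p = 0.0711). The differences between the lists were not tested.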

How the data were processed

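Gene expression was measured on 10 arrays, 1 per culture condition, and samples were grouped by their titles. The deposited table holds log2 intensities that the authors made with RMA in the affy package, per the submitters' processing notes, in versions not given in the sources used here. RMA includes quantile normalization, which gives all arrays nearly the same distribution (array medians 6.15 to 6.21, values 2.98 to 15.2), so a shift shared by most genes cannot be seen. Of 54675 probe sets 41097 had 1 symbol in GEO's platform annotation, 1801 several and 11777 none. Per gene the probe set with the highest mean was kept.

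From these values limma 3.58.1 (lmFit and eBayes, R 4.3.3) fitted coculture, vitamin D3 and cell line over 8 arrays, an interaction of coculture with line or vitamin D3, and THP1 against the lines over 10 arrays, two-sided, with Benjamini-Hochberg adjustment over all genes tested. Figures used matplotlib 3.10.9. The fits were tested on simulated data with known changes and noise drawn independently for each array. Those changes were larger than the median member difference, so the simulation does not cover changes of that size. No scan or batch information was used. Values on every array are given, within each role group, for the 2 members with the largest coculture difference, and over all members for those at the extremes of each comparison. The 49 members and all lists were chosen with earlier results of these data known. Alternatives were other filters on dim genes, probe set averaging, median centring, cyclic loess, eBayes with trend and robust, a replicate block, a 1.5-fold minimum, models without the vitamin D3 labels or without cocultured arrays, and leaving out each array.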

Additional observations from a re-analysis of the deposited data

Results flagged for a closer look

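In 6 members the coculture pairs of Hke3 all went 1 way and those of HCT116 the other, a pattern not counted over all genes. For 3 of them the interaction term, the coculture difference in Hke3 minus that in HCT116, was called by limma: SMC2 (0.67, adjusted p = 0.0152), BUB1 (0.51, adjusted p = 0.031) and NDC80 (-0.45, adjusted p = 0.0464). For the other 3 it was tested and did not pass: INCENP (0.54, adjusted p = 0.0988), NCAPD2 (0.29, adjusted p = 0.124) and CENPE (-0.25, adjusted p = 0.241). On the smaller side the differences were close to 0, such as 0.00 and 0.06 for SMC2 in the Hke3 pairs with and without vitamin D3, and 0.07 and 0.01 for NDC80 in those of HCT116. Nothing in these data gives the spread of repeated arrays of 1 condition. At an unadjusted p under 0.05 by limma the interaction reached 24.5% of the members, against 21.9% of all genes. The pattern is therefore not shown to be particular to these genes.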

How the results depend on the processing

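In coculture 29 members were called lower. This became 6 with the other 2 factors as a replicate block of 4 levels, 1 with a 1.5-fold minimum, and 2 to 11 when 1 array was left out, while 0 were higher in every setting. The block of 4 levels is the paired fit, since each level holds 1 coculture pair. Beyond it no pairing was possible, because each condition has 1 array and its replicate number pairs nothing. For all genes the counts of 537 lower and 498 higher became 323 lower without the filter, 113 and 146 with the block, 8 and 67 at 1.5-fold, 11 to 228 and 28 to 241 without 1 array, and 365 lower and 713 higher after cyclic loess, under which 22 members were lower. Between the lines, the calls became 1 lower and 2 higher at 1.5-fold (237 and 701 genes), 10 to 11 lower and 7 to 11 higher without 1 array, the fewest higher without Hke3 in coculture. The coculture by line calls of 2 above 0 and 1 below became 1 and 0 without the filter, 4 above at the 75th percentile filter, 5 above with trend and robust, and 0 to 2 above and 0 below without 1 array. In THP1 20 members were higher after cyclic loess, a count not set against all genes here. Averaging all probe sets reversed the line difference of BUB1 (-0.29), BIRC5 (-0.078) and ECT2 (-0.31) and the THP1 difference of CDC25C (0.28) and KIF23 (0.21). The cause of these changes was not tested, except that fewer arrays leave fewer degrees of freedom.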

Other observations

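Kinetochore genes outside the 49 differed between the lines mostly in 1 direction. Of 26 such genes 9 were called lower in Hke3 than in HCT116, against 15.7% of all genes, and 0 higher, against 24.8%. CENPC, which links the centromere to the kinetochore, had the smallest p. It read 6.87 and 6.77 in cocultured Hke3 and 6.96 and 7.11 in Hke3 without THP1, against 7.40 and 7.40 in cocultured HCT116 and 7.66 and 7.63 in HCT116 without THP1, each with and without vitamin D3. The difference was -0.59 ± 0.06 (limma adjusted p = 0.000173), with every Hke3 array below every HCT116 array. CENPN, which reads centromeric nucleosomes, followed at -0.41 (adjusted p = 0.000613), and ZW10, which brings dynein to the kinetochore, at -0.39 (adjusted p = 0.00103). CENPU, CENPH, NSL1, MIS18A, OIP5 and SKA3 were also called lower. The direction was not particular to kinetochore genes. Of 13 cohesin genes 5 were called lower and 0 higher, and of 14 of the anaphase promoting complex 5 lower and 1 higher. Over the 94 tested genes of all 6 lists, 29 were lower and 7 higher. Among the 7 kinetochore and centromere members 2 were lower and 2 higher. The genes shown by name were chosen after their values were seen.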
